A study of Mus musculus with 6 samples.

Results

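Hepcidin and the genes that handle iron in the liver were described in mice fed the HFC diet with or without lovastatin or fenofibrate. The list holds 10 genes (Hamp, Hamp2, Tfrc, Tfr2, Trf, Slc40a1, Hfe, Bmp6, Cp and Fth1), which were selected on results of these same arrays, with the level of Hamp on them in view. Their own values are therefore given as a description, with no test. Of the 10 genes, 8 were measured, by 1 probe each, among 16887 named genes. Hamp2 and Fth1 have no probe in the annotation used and were not analysed here.

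Hepcidin, the product of Hamp, is a peptide hormone made mainly by hepatocytes. It binds ferroportin (Slc40a1), the only known cellular iron exporter, and causes its degradation, so that less iron enters the plasma from the gut, from macrophages and from liver stores. Hamp transcription is raised by iron through BMP6 and SMAD signalling, with Hfe and transferrin receptor 2 as sensors of loaded transferrin, and by inflammation through IL6 and STAT3.

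Liver RNA came from 6 C57BL/6 mice aged 7 weeks, each on its own 2-colour array, with 2 mice in each of 3 groups. All 6 mice ate the HFC diet, called high fat diet in the sample titles, for 12 days. From day 5 the mice were dosed orally every day with vehicle (the HFC group), with 30 mg/kg lovastatin or with 100 mg/kg fenofibrate. Lovastatin inhibits HMG-CoA reductase in cholesterol synthesis, and fenofibrate activates the nuclear receptor PPARα. For the lovastatin samples the labels conflict, since their treatment field mentions fenofibrate while title and source name both give lovastatin; the title was used. Every array shared its reference, a pool of liver RNA from 6 chow-fed mice, so the spread between chow-fed mice was not measured. The mouse RNA carried Cy5 in the HFC and lovastatin groups but Cy3 in the fenofibrate group, so that dye and fenofibrate cannot be told apart gene by gene. Values are log2 ratios of the mouse over the pool, where 0 is the level of the pool and -1 is a 0.5-fold level. The base and the direction are likely rather than stated.

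Array SDs over all probes ran from 0.419 to 1.09, with lovastatin replicate 1 the widest, and array medians from -0.01 to 0.03. On HFC replicate 2, 50.28% of the probes lie in 4 blocks of the array whose values are displaced along the row. In these blocks the correlation with the average of the other arrays, lovastatin replicate 1 left out, was -0.03 to 0.03. It was 0.16 to 0.33 in the 4 intact blocks, and 0.24 to 0.26 in the displaced blocks once their values were rotated back. The displaced values were treated as missing. Among the measured iron genes on the list, this touches Bmp6 alone.

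Mouse hepcidin has a close neighbour copy, Hamp2, and the 250 bases before each start site are shown because the pathways named above act on this stretch in Hamp. Both windows are from RefSeq on GRCm38.p6, on the minus strand of chromosome 7, at chr7:30944030-30944279 for Hamp and chr7:30924182-30924431 for Hamp2. Capitals mark GGCGCC, the core of a BMP-responsive element, and TTCNNNGAA, the core that STAT factors bind.
Hamp: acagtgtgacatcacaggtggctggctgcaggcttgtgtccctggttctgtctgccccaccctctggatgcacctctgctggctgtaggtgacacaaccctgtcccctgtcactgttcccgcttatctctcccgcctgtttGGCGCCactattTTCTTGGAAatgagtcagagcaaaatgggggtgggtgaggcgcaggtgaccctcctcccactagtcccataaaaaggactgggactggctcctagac
Hamp2: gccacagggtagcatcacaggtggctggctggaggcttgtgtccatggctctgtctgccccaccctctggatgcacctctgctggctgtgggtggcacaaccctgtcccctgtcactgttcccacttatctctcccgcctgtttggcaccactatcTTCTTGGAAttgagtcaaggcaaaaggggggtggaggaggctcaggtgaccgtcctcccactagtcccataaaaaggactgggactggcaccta

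Over 247 aligned bases the 2 windows shared 227 (91.9%) and differed by 20 substitutions. One of them, G145A, counted from 1 at the 5′ end of the Hamp window, falls in GGCGCC, so that Hamp holds this core 109 bases before its start and the Hamp2 window does not. TTCNNNGAA lies 97 bases before the start in Hamp and 94 in Hamp2. Of all 32851 promoter windows of this length, 9.59% held GGCGCC and 7.02% held TTCNNNGAA. Both motifs were read on both strands and do not overlap here. CACGTG, the E-box core, was also searched and was in 6.02% of windows. Among the other listed genes, GGCGCC was found before 1 of the 2 Tfrc starts (89 bases) and CACGTG before the Bmp6 start (127 bases). No window was given for Trf or Slc40a1, and none of the 3 motifs was found before Tfr2, Hfe, Cp or Fth1. The sequence of the Hamp probe is not given in the sources used here, so a reading of Hamp2 transcripts by this probe was not tested.

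Hamp lay below the chow pool in all 6 HFC-fed mice. Its log2 ratio was -0.90 and -2.24 in the 2 HFC mice, -0.36 and -0.56 with lovastatin, and -2.06 and -2.56 with fenofibrate. The lovastatin mice were nearest to the pool and the fenofibrate mice among the 3 lowest, with HFC replicate 2 between the fenofibrate values. This order rests on the likely direction of the ratios: with the fenofibrate arrays turned in sign, their Hamp mean was 2.31, the highest of the groups. As deposited, Idi1 and Msmo1, chosen with their values known, lay far below the pool in every group. Idi1 had -4.48 with HFC, -4.46 with lovastatin and -4.67 with fenofibrate, and Msmo1 had -3.75, -3.62 and -3.92. Turned in sign, the fenofibrate arrays would stand opposite to the other groups for both genes. The 2 HFC mice differed from each other by more than the 2 mice of either drug group did, and the SD within groups was 0.59. Group means were -1.57 (SE 0.351, n = 2) for HFC, -0.46 (SE 0.351, n = 2) for lovastatin and -2.31 (SE 0.351, n = 2) for fenofibrate. Weighting both dye orientations equally gave -1.66 (SE 0.215), a level of 0.316 of the pool.

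Within each array, Hamp stood near the bottom of all features in 5 of the 6 mice. Its percentile was 1.98 and 0.194 in the HFC mice, 32.1 and 6.33 with lovastatin, and 0.306 and 0.257 with fenofibrate. The percentile of 32.1 is on lovastatin replicate 1, the array with the widest spread.

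Most other hepatocyte markers measured lay below the pool as well. Of 9 measured hepatocyte markers, 8 had a dye-balanced ratio below 0, with a median of -0.72 against 0.01 for all features, and Ahsg, the secreted glycoprotein fetuin-A, was lower by limma with Benjamini-Hochberg adjustment (-1.26, SE 0.145, adjusted p = 0.0459, lower on 6 of 6 arrays). The marker median was -0.72 and -0.37 on the HFC arrays, -0.48 and -0.65 on the lovastatin arrays, and -1.31 and -1.05 on the fenofibrate arrays. On HFC replicate 2 only 5 of the 9 markers had an intact value. Hamp lay below the lowest of these 5 there (-0.80, or -1.26 for Cyp2e1 put back). It also lay below the lowest marker on both fenofibrate arrays (-1.55 and -2.23), and within the markers' range on the others. The shift was not shared by all hepatocyte transcripts. The remaining marker, Apob, had a dye-balanced ratio of 0.18 (SE 0.122). Trf, also secreted by hepatocytes, lay above the pool with HFC and lovastatin and below it with fenofibrate (values below). In whole liver, fewer hepatocytes, less RNA per hepatocyte and changes in single genes cannot be told apart. The part of any of them in the Hamp ratio was not tested.

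The sensors upstream of Hamp stayed close to the pool in most mice. Tfr2, the second transferrin receptor, had ratios of -0.11 and 0.05 in the HFC mice, 0.47 and -0.02 with lovastatin, and -0.20 and 0.19 with fenofibrate. Hfe, the MHC class I-like protein mutated in hereditary haemochromatosis, had -0.09 and -0.11, then 0.04 and -0.17, then -0.54 and 0.17 in the same order. The groups overlapped for both genes, and their dye-balanced ratios were 0.05 (SE 0.131) for Tfr2 and -0.13 (SE 0.139) for Hfe.

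Bmp6, the ligand that reports iron load to hepatocytes and is made mainly by sinusoidal endothelium, had a single value far from the others. Its ratio was -0.08 on HFC replicate 1, 4.34 and 0.14 with lovastatin, and -0.23 and -0.41 with fenofibrate. On HFC replicate 2 its spot is displaced, and the value was -0.79 as deposited and -0.23 put back. The lovastatin mean of 2.24 (SE 1.02) thus rests on replicate 1, where Bmp6 stood at the 99.8 percentile. Without that array the dye-balanced ratio went from 0.38 (SE 0.675) to -0.14. The 9 sinusoidal endothelial markers had a median of -0.55 on that array and a dye-balanced median of -0.17 over all arrays, with 7 of 9 below 0 and none past the threshold.

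**Figure D1:**
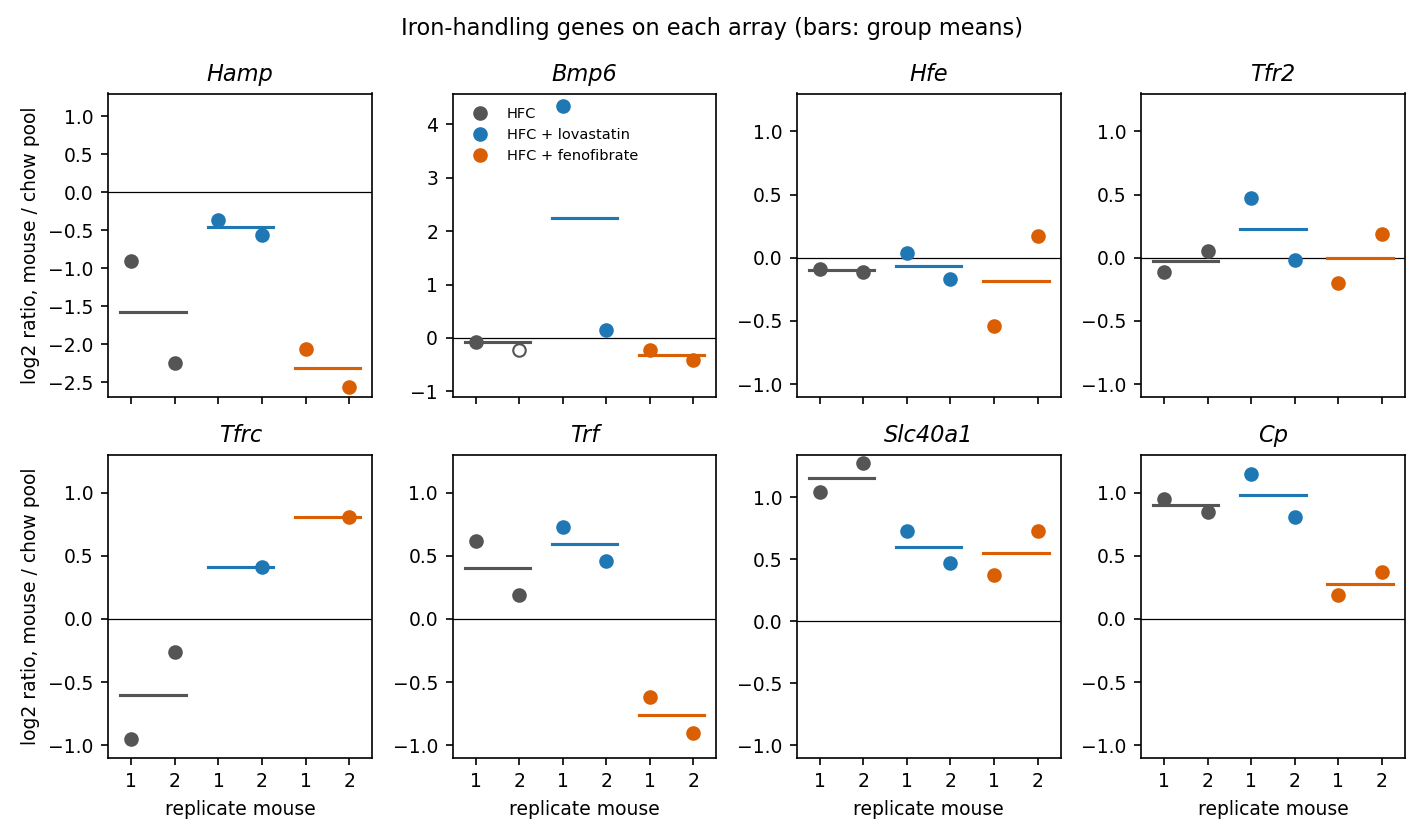
Log2 ratio of each mouse to the chow pool for the 8 measured genes, 1 panel per gene with its own vertical scale. Points are arrays (2 per group), bars are group means (a single array for Bmp6 in HFC and for Tfrc in both drug groups), the line at 0 is the pool, and the open circle is the value of Bmp6 on HFC replicate 2 put back from its displaced block. Hamp lies below 0 on all 6 arrays, Slc40a1 and Cp lie above 0 on all 6, and Bmp6 has 1 value at 4.34.

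Iron uptake genes differed in pattern. Tfrc encodes transferrin receptor 1, which brings loaded transferrin into cells and whose mRNA is stabilised when iron is scarce. Its ratio was -0.95 and -0.26 in the HFC mice, 0.41 on lovastatin replicate 2 and 0.81 on fenofibrate replicate 2, with no value on the first array of either drug. Both drug-treated mice with a value lay above both HFC mice, with 1 array per drug and an SD of 0.488 that comes from the HFC pair alone. Against the HFC group, Tfrc was 1.01 log2 units higher with lovastatin (SE 0.481) and 1.42 higher with fenofibrate (SE 0.481). The fenofibrate difference runs along the dye orientation, so dye and drug cannot be told apart in it. With the fenofibrate arrays turned in sign it was -0.205.

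Trf encodes transferrin, the plasma iron carrier secreted by hepatocytes. It lay above the pool with HFC (0.62 and 0.19) and with lovastatin (0.73 and 0.46), and below it with fenofibrate (-0.62 and -0.90). The fenofibrate mice did not overlap the other 4. The fenofibrate mean was -0.76 (SE 0.205) and lay 1.17 log2 units below that of HFC (SE 0.289), a level of 0.446, while lovastatin and HFC differed by 0.19 (SE 0.289). This gap runs along the dye orientation, so dye and drug cannot be told apart in it.

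Slc40a1 and Cp, which act in iron export, lay above the pool in all 6 mice. Slc40a1 had ratios of 1.04 and 1.28 with HFC, 0.73 and 0.47 with lovastatin, and 0.37 and 0.73 with fenofibrate. Its HFC mice were the 2 highest, at percentiles 98.8 and 97.8 of their arrays, and neither drug group overlapped them. The dye-balanced ratio was 0.71 (SE 0.119), a 1.64-fold level, and the group means were 1.16 for HFC, 0.60 for lovastatin and 0.55 for fenofibrate (SE 0.195 each).

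Cp encodes ceruloplasmin, the plasma ferroxidase that oxidises iron for loading onto transferrin. Its ratios were 0.95 and 0.85 with HFC, 1.15 and 0.81 with lovastatin, and 0.19 and 0.37 with fenofibrate. HFC and lovastatin overlapped, and both fenofibrate mice lay below all others, again along the dye orientation. The dye-balanced ratio was 0.61 (SE 0.112), a 1.53-fold level, and the SD within groups, 0.162, was the smallest of the 8 genes. With the fenofibrate arrays turned in sign, their means were -0.55 for Slc40a1, -0.28 for Cp and 0.76 for Trf, while the HFC and lovastatin values were as given.

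Kupffer cells, the resident macrophages that also carry ferroportin, had 9 measured markers, of which 6 had an intact value on HFC replicate 2. The marker medians were -0.08 and -0.07 on the HFC arrays, 0.12 and 0.07 on the lovastatin arrays, and -0.29 and -0.76 on the fenofibrate arrays. The dye-balanced median of these markers was -0.26, with 7 of 9 below 0 and none past the threshold. On each lovastatin array 7 of the 9 lay above 0. The part of Kupffer cells in the Slc40a1 ratio was not tested. The 4 measured erythroid markers had a median of -0.08, and all 7 stellate markers lay below 0 with a median of -0.18.

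**Figure D2:**
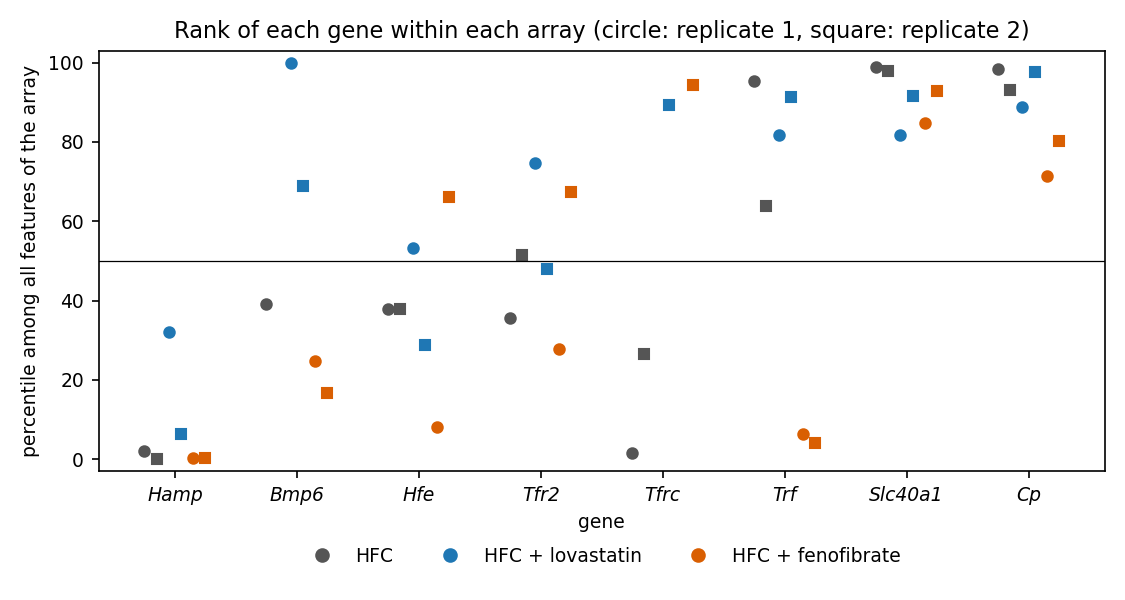
Percentile of each measured gene among all features of the same array (vertical axis, 0 to 100), with 1 point per array by group. Hamp lies between 0.194 and 6.33 on 5 arrays and at 32.1 on lovastatin replicate 1, and Slc40a1 lies between 81.7 and 98.8.

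Counts over the list were read against all features. Of the 6 listed genes with a value on all 6 arrays, Slc40a1 and Cp were above 0 on every array (6.10% of 9686 features with 6 values) and Hamp below 0 on every array (5.87%). Trf and Cp had both fenofibrate arrays below the other 4, as had 10.4% of features. These genes were selected from these ratios, so nothing is read from their count.

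Across all features, the dye-balanced comparison called 110 of 19447 (0.566%), 33 higher (0.170%) and 77 lower (0.396%), by limma at an adjusted p of 0.05. None of the 8 listed genes was among them, from which nothing is read, since they were selected on these ratios. With displaced values put back, 1 of the 8 was called beside 191 of all features. The same held with quantile normalization (1 beside 191) and with array quality weights (1 beside 230). Leaving out a lovastatin array also brought calls among the 8, more without replicate 2 than without replicate 1. Those fits leave 1 mouse in the lovastatin group. Nothing is read from any of these calls either. In the main fit the count of features called was 0 for HFC (n = 19499), lovastatin (19501) and fenofibrate (19470) against the pool. It was also 0 for lovastatin (19485) and for fenofibrate (19456) against HFC. This is 0% in each, and 0 of the 8 were called there. At an unadjusted p under 0.05, limma gave 921, 2064, 1483, 390 and 559 features in these comparisons. Calls depended on single arrays: the dye-balanced count ran from 0 without either fenofibrate array, over 5 without HFC replicate 1, 25 without HFC replicate 2 and 228 without lovastatin replicate 1, to 824 without lovastatin replicate 2. Without lovastatin replicate 2, that group rests on replicate 1 alone, which is assumed to vary like the other groups.

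The drugs were set against the HFC diet alone, which asks how each changes the liver response to the diet. Both comparisons share the 2 HFC arrays. Hamp was 1.11 log2 units higher with lovastatin than with HFC (SE 0.496), and both lovastatin mice lay above both HFC mice. Of features with 6 values, 13.0% had lovastatin above HFC in this way, and 31.1% had the 2 groups not overlapping in either direction, as had 2 of the 6 listed genes (Hamp and Slc40a1). With fenofibrate Hamp was 0.74 lower than with HFC (-0.74, SE 0.496), and the groups overlapped. With the fenofibrate arrays turned in sign this difference was 3.88, in the opposite direction. As read here, without HFC replicate 1 that difference was -0.07, and without HFC replicate 2 it was -1.41.

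Slc40a1 was lower than with HFC by -0.56 under lovastatin (SE 0.276) and by -0.61 under fenofibrate (SE 0.276), with neither group overlapping HFC. Lovastatin arrays lay below HFC arrays for 18.1% of features and fenofibrate arrays for 20.4%. Under fenofibrate, Trf (-1.17, above) and Cp (-0.62, SE 0.259) also lay below both HFC mice, which makes 3 of the 6 listed genes not overlapping HFC, against 39.7% of features in either direction. Tfr2 and Hfe differed from HFC by at most 0.26 under either drug, less than their SE of 0.302 and 0.322.

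**Figure D3:**
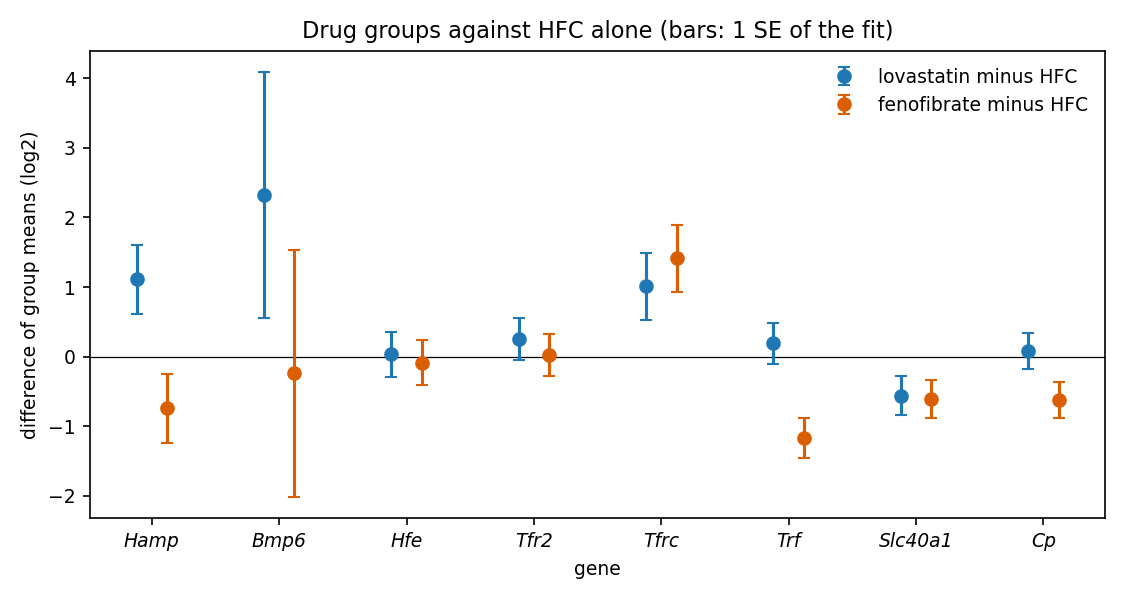
Difference in log2 ratio between each drug group and the HFC group for the 8 measured genes, with the limma estimate as a point and 1 SE on either side as the bar; lovastatin shares the dye orientation of HFC and fenofibrate does not. Hamp is at 1.11 with lovastatin and -0.74 with fenofibrate, and Trf is at 0.19 and -1.17.

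Other genes of iron biology were followed through 7 lists of 90 genes, of which 82 were measured and 44 have at least 1 displaced spot on HFC replicate 2. None of the 82 passed the threshold in any of the 6 comparisons (limma, Benjamini-Hochberg over all features). In the dye-balanced comparison, 41 lay above 0 and 40 below, with a median of 0.01 against 0.01 for all features, and 14 of 82 (17.1%) had an unadjusted p under 0.05, against 10.8% of all features. The same shares were 6.10% against 4.72% for HFC, 12.2% against 10.6% for lovastatin and 13.4% against 7.62% for fenofibrate, each against the pool. Against HFC they were 0% against 2% for lovastatin and 6.10% against 2.87% for fenofibrate.

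Regulators of hepcidin transcription and BMP-SMAD targets lay on both sides of 0. Of 19 regulators measured, 11 lay above 0 in the dye-balanced comparison (median 0.10) and 0 passed. Creb3l3, an ER-bound transcription factor of the liver, was above the pool on 6 of 6 arrays (0.33, SE 0.113, adjusted p = 0.395), and Bmpr2, a BMP receptor, likewise (0.25, SE 0.109, adjusted p = 0.508). Fgl1, a hepatocyte-secreted protein that can block BMP signalling to Hamp, had -0.46 (SE 0.122, adjusted p = 0.299). Of the 6 BMP-SMAD targets, 3 lay above 0 and 3 below, with a median of 0.01. The smallest p in this list belonged to the inhibitory Smad6 (-0.28, adjusted p = 0.622), the BMP pseudoreceptor Bambi (-0.20, adjusted p = 0.626) and the transcriptional inhibitor Id3 (0.26, adjusted p = 0.652). Id1, a direct SMAD target often read beside Hamp, had 0.33 and 0.14 with HFC, -0.19 and -0.66 with lovastatin, and 0.13 and 0.38 with fenofibrate; it was picked from the list after its values were seen. Its order of groups differed from that of Hamp, with the lovastatin mice lowest.

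Targets of IL6 and STAT3 lay below the pool in the dye-balanced comparison for 7 of 9 genes, with a median of -0.35, and 0 passed. Fgg, the fibrinogen gamma chain, was below on 6 of 6 arrays (-0.61, SE 0.113, adjusted p = 0.13). Socs3, the feedback inhibitor of this pathway, was above on 6 of 6 arrays (1.04, SE 0.22, adjusted p = 0.177), and it passed under quantile normalization (adjusted p = 0.0435) and without lovastatin replicate 2 (0.0422). Fgb, the fibrinogen beta chain, had -0.53 (SE 0.165, adjusted p = 0.334), with 3 arrays on each side of 0. The list median was 1.56 on lovastatin replicate 1 and between -0.69 and -0.12 on the other 5 arrays (6 of the 9 genes on HFC replicate 2). On that array the acute-phase genes Saa1, Saa2, Hp and Lcn2 had 1.78, 1.71, 1.96 and 2.33, while on lovastatin replicate 2 they had -0.23, -0.51, 0.86 and -0.41; these 4 were chosen for naming after their values were seen. It is also the array on which Hamp was nearest to the pool; the part of the one in the other was not tested.

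Among 19 genes of iron uptake and transport, 12 lay above 0 and 0 passed. Flvcr2, a member of the FLVCR transporter family, was above the pool on 5 of 5 arrays (1.40, SE 0.24, adjusted p = 0.156), and Cd163, the macrophage receptor for haemoglobin bound to haptoglobin, was below on 5 of 5 (-0.96, SE 0.15, adjusted p = 0.129). Both have a displaced spot on HFC replicate 2, whose values put back were -0.02 for Flvcr2 and 0.06 for Cd163, near the pool. Abcg2, a porphyrin and drug exporter, had 0.72 (SE 0.164, adjusted p = 0.206). Flvcr2 passed under quantile normalization (adjusted p = 0.0335), without lovastatin replicate 1 (0.0424) and without lovastatin replicate 2 (0.0247).

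Of the 8 genes of iron storage and sensing, 0 passed in any comparison. Ftl1, the ferritin light chain, had 0.00 on HFC replicate 1, 0.14 and 0.03 with lovastatin, and 0.72 and 0.88 with fenofibrate. Aco1, which encodes the iron regulatory protein IRP1, had -0.60 and -0.31, then -0.65 and -0.28, then 0.45 and 0.47; it was chosen for naming after its values were seen. For both genes the fenofibrate mice lay above all others with a value. Among features with 6 values, 10.8% shared the order of Aco1. That share does not apply to Ftl1, whose spot on HFC replicate 2 is displaced (0.27 put back). In the dye-balanced comparison Ftl1 had 0.42 (SE 0.123, adjusted p = 0.349), and the 2 other genes of this list with the smallest p were Ireb2, which encodes IRP2 (-0.38, adjusted p = 0.468), and Ftmt, mitochondrial ferritin (-0.24, adjusted p = 0.629). Of the 8 genes of this list, 7 were above HFC under fenofibrate, as were 47.8% of all features. The median difference was 0.54 (0.41 with the displaced values put back) against -0.02 for all features. Other lists also lay mostly to 1 side: 8 of 9 IL6 and STAT3 targets were below HFC (median -0.45). Of the 19 uptake and transport genes, 14 were above it (median 0.225). Dye and drug cannot be told apart here either.

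Haem genes and iron-sulfur genes gave no call. Of 12 haem genes 6 lay above 0 and 6 below in the dye-balanced comparison. Blvrb, which reduces biliverdin, had 0.47 (SE 0.14, adjusted p = 0.358), and Blvra, the main biliverdin reductase, was below the pool on 6 of 6 arrays (-0.23, adjusted p = 0.541). Fech, the ferrochelatase that inserts iron into haem, had 0.26 (adjusted p = 0.533). Of 9 iron-sulfur genes 6 lay below 0. Fdx1, a mitochondrial ferredoxin, was below on 6 of 6 arrays (-0.62, SE 0.104, adjusted p = 0.109), with values from -0.93 on lovastatin replicate 2 to -0.44 on both fenofibrate arrays; it passed without lovastatin replicate 2 (adjusted p = 0.0464). Isca2 and Hscb, assembly factors, had -0.25 (adjusted p = 0.495) and -0.28 (adjusted p = 0.515) and were below the pool on every array with a value.

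**Figure D4:**
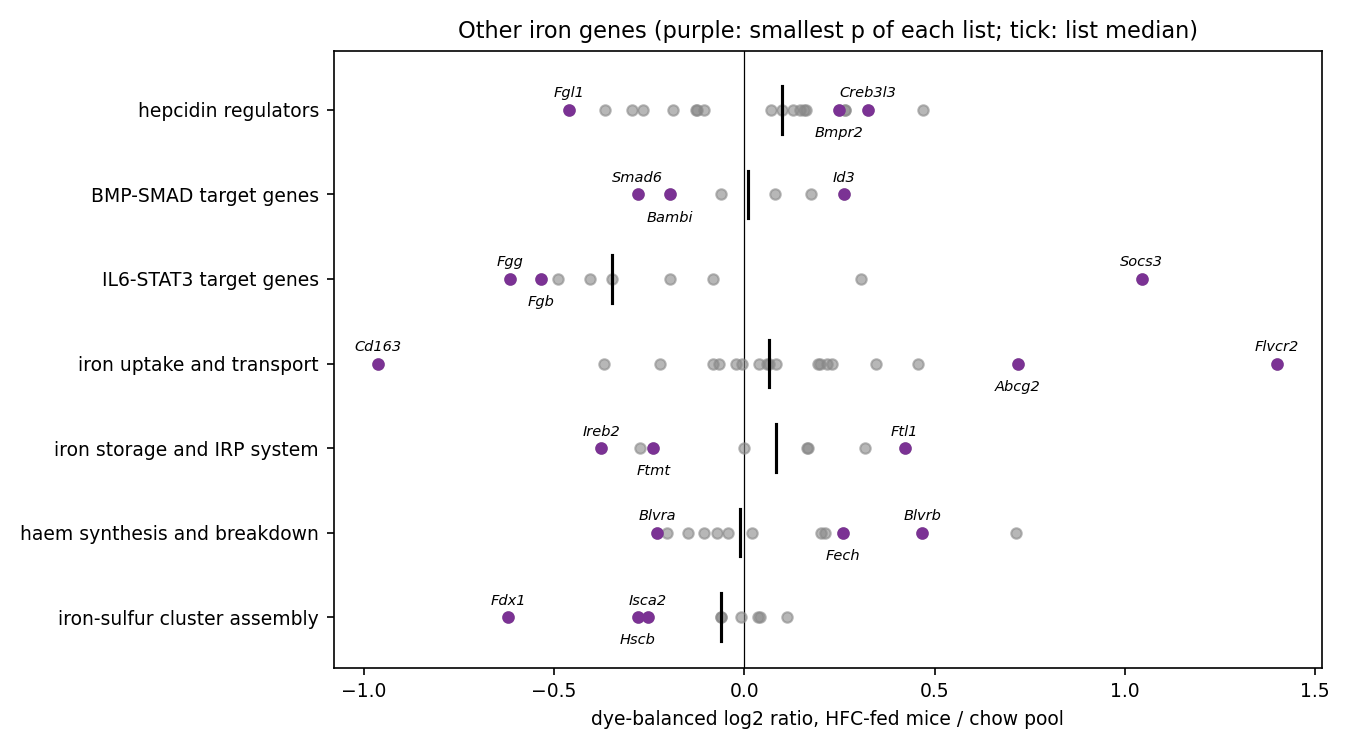
Dye-balanced log2 ratio to the chow pool of the measured genes in each of the 7 lists of other iron genes, with 1 point per gene and the list median. List medians lie between -0.35 (IL6 and STAT3 targets) and 0.10 (regulators of hepcidin), and no gene passed the threshold.

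The genes whose ratios followed Hamp most closely over the 6 arrays were ranked by Pearson's r among 4235 genes with a value on every array and a range of at least 1 log2 unit. They were Tmsb4x (r = 0.992), 4930483K19Rik (0.988), Rnf168 (0.976), Dusp3 (0.973) and Ankrd1 (0.965). The arrays share the pool, and with 6 points such values are a description of these arrays only. Tmsb4x, the actin-binding peptide thymosin beta 4, had -0.09 and -0.60 with HFC, 0.27 and 0.12 with lovastatin, and -0.45 and -0.75 with fenofibrate. The 6 arrays stood in the same order for Tmsb4x as for Hamp, but Tmsb4x was above the pool in the lovastatin mice, where Hamp was below it.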

How the data were processed

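The authors deposited a table with a value for each spot on each array, read here as a log2 ratio of mouse to chow pool. How they scanned, corrected and normalized the arrays is not given in the sources used. The members and lists were chosen with earlier results of these data known. Per the labels' protocols, 0.5 µg of total RNA was labelled with a linear amplification kit, and replicates are separate mice. Of 22575 spots, 726 had no value and 561 control spots were left out, leaving 21288 probes, of which 18658 have 1 gene symbol in the platform annotation and 30 several. Entrez numbers tied 18445 probes to the table of gene names. Probes of a gene were averaged (1247 genes), giving 19517 features, of which 2630 are unnamed probes. No intensities were used, so no filter on dim probes was set, and precision is limited by how few arrays there are.

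Displaced spots of HFC replicate 2 were set to missing, with values as deposited or put back as alternatives. Group means were fitted with limma 3.58.1 in R 4.3.3 over all arrays (residual degrees of freedom 3, prior 2.37). Benjamini-Hochberg adjustment covered every feature (threshold 0.05). The dye-balanced comparison weights HFC and lovastatin 0.25 each and fenofibrate 0.5. The fit was tested on simulated data. The text names every listed gene, and of each other list the 3 genes with the smallest dye-balanced p; exceptions are marked. Genes like Hamp were ranked among genes with 6 intact values. The code used Python 3.11.15, numpy 2.4.6, pandas 2.3.3, Biopython 1.88 and matplotlib 3.10.9.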

Additional observations from a re-analysis of the deposited data

Results flagged for a closer look

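Among the genes whose values are given here, with 2 values in both groups, differences are listed where all arrays of a group lay on the opposite side of the pool from all arrays of another. For Trf the fenofibrate mean lay below that of HFC (-1.17) and of lovastatin (-1.35). For Bmp6 fenofibrate lay below lovastatin (-2.56), a value that rests on lovastatin replicate 1. For Smad6, an inhibitory SMAD, fenofibrate lay above lovastatin (1.05). For Fgb, the fibrinogen beta chain, fenofibrate lay below HFC (-1.80, limma adjusted p = 1), and for Fech, ferrochelatase, above it (1.01, limma adjusted p = 1). For Aco1, which encodes IRP1, fenofibrate lay above HFC (0.915, limma adjusted p = 1) and above lovastatin (0.925). For the SMAD target Id1, lovastatin lay below HFC (-0.66, limma adjusted p = 0.972) and fenofibrate above lovastatin (0.68). For Tmsb4x, picked for its likeness to Hamp, lovastatin lay above HFC (0.54) and fenofibrate below lovastatin (-0.795). The differences between fenofibrate and lovastatin were not tested. In every pair with fenofibrate the dye orientation differs between the groups, and dye and drug cannot be told apart; lovastatin and HFC share it.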

How the results depend on the processing

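The count of features past the threshold in the dye-balanced comparison, 110 as reported, was 67 with the displaced spots as deposited, 191 with them put back, 191 with quantile normalization, 230 with array quality weights, 0 with the fenofibrate arrays turned in sign and 0 with a replicate block; leaving out an array gave 0 to 824. The share of higher calls was 30.0% as reported and 41.9% with quantile normalization (80 higher, 111 lower). The other iron genes past it, 0 as reported, numbered 2 with quantile normalization and 0 to 3 when an array was left out. For HFC against the pool, 0 became 5 (put back) and 9 (quantile), and 0 to 6 with an array left out; for lovastatin against the pool, 2 and 4, and 0 to 3805, with 0 to 12 iron genes. For fenofibrate against the pool, 0 became 9 as deposited, 32 put back, 12 centred, 14 with quantile normalization and 111 with weights, and 0 to 23 with an array left out. Lovastatin against HFC gave 0 to 1184 features and 0 to 6 iron genes with an array left out, and fenofibrate against HFC 37 with the sign turned. The causes were not tested. Of 702 recomputed values of the listed genes, 665 moved by less than 1 SD and 37 by more. Many of these values could not move, so the count is no measure of stability. Each gene has 1 probe, and only Bmp6 has a displaced spot. Array weights were equal within each group, and leaving out an array of a group not compared leaves the estimate as it was. With the fenofibrate arrays turned in sign, the dye-balanced ratio of Hamp was 0.65. Replicate differences of the 3 groups correlated at -0.02, -0.0001 and 0.03, so the replicate numbers do not pair the mice.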
